A study of Mus musculus with 3 samples.

Results

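The 42 genes described here encode the lysosome's enzymes, its main membrane and soluble proteins and the vacuolar ATPase that acidifies it. They were taken by name from the gene symbols, and all 42 matched among 21851 protein-coding genes with an annotated coding transcript. They comprise 9 proteases, 7 other hydrolases, 3 soluble proteins that are not enzymes, 8 membrane proteins and 15 ATPase genes (5 of the membrane sector V0, 8 of the catalytic sector V1 and 2 accessory proteins).

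DNase-seq was done on primary monocytes of female adult B6CASTF1/J mice, aged 2 months, an F1 strain bred from C57BL/6J and CAST/EiJ. There was 1 group with no treatment, of 3 libraries that the labels number as biological replicates 1, 2 and 4, and these share 1 donor identifier. Errors over the 3 libraries therefore measure the spread between libraries, which may be technical. How the cells were isolated is not given in the sources used here. In DNase-seq, accessible DNA is cut by DNase I, so a peak marks open chromatin, and a footprint is a short stretch inside open chromatin that is cut less than its flanks.

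Lysosomes degrade proteins, lipids, glycans and nucleic acids taken up by endocytosis and phagocytosis or delivered by autophagy, and cells of the monocyte and macrophage lineage are rich in them. The vacuolar ATPase pumps protons through its V0 sector with the energy of ATP hydrolysis in V1, and the acid pH is what most of the hydrolases need. Many lysosomal genes carry near their start the CLEAR element, an E-box with fixed flanks that the related factors TFEB, TFE3 and MITF can bind.

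The libraries held 54046, 42657 and 48980 peaks and 144028, 107955 and 119597 footprints in replicates 1, 2 and 4. Of 10 monocyte markers, 7 carried a peak at the promoter in every library, while Ccr2 had none and Fcgr1 and Ly6c2 had one in 1 library each. Promoter peaks in every library were also present at 2 of 8 neutrophil granule markers (Csf3r and S100a8), 1 of 6 B cell markers (Blnk) and 1 of 6 T cell markers (Cd5). They were present at none of 5 natural killer, 6 erythroid and 6 hepatocyte markers.

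A promoter peak overlapped 1 kb on either side of any coding transcription start site (TSS). For each gene with one in all 3 libraries, the tallest merged peak near its TSSs was called its promoter region. The sequences below are all 9 matches to the CLEAR core in the members' promoter regions, chosen by motif and not by footprint. Each line gives 30 bases around a match to the CLEAR core, written 5′ to 3′ on the strand of the gene, with the 8-base core in capitals. All sequences are of the mm10 reference, strain C57BL/6J, and were not read from these mice.
Atp6v0d1: ccctactgcggTCACGTGAgacgcggtgcg
Ctsa core 1: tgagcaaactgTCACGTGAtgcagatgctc
Ctsa core 2: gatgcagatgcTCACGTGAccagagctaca
Ctsd: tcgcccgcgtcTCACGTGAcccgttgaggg
Gla core 1: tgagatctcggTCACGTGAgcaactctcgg
Gla core 2: taagcgattgaTCACGTGAgcatctacgtc
Lamp1 core 1: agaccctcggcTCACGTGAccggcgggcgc
Lamp1 core 2: cgcggcactgcTCACGTGAcaggcgctgcc
Mcoln1: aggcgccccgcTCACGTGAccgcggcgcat
The core of Atp6v0d1 lay between annotated genes at chr8:105566061-105566068 (mm10), with its centre at -18 bp from the TSS (negative is upstream). The Mcoln1 core (chr8:3500473-3500480) and the Lamp1 cores (chr8:13159220-13159227 and chr8:13159247-13159254) lay in the 5′ UTRs of those genes, 20, 63 and 90 bp into the transcript. The Ctsd core (chr7:142387919-142387926) was in a Ctsd UTR, 115 bp after one coding TSS and at -66 bp from the nearest. Both Gla cores (chrX:134601193-134601200 and chrX:134601226-134601233) were upstream of Gla and inside an annotated UTR of Hnrnph2, the neighbour that starts within 1 kb. Both Ctsa cores (chr2:164833760-164833767 and chr2:164833777-164833784) were 863 and 880 bp downstream of the nearest coding TSS, in an annotated Ctsa UTR.

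Longer stretches are shown for 3 promoters that hold E-boxes outside exons. The capitals mark the E-box in Lamp1 and Atp6v0b and the CLEAR core in Atp6v0d1. Lamp1, the major lysosomal membrane glycoprotein, had 4 E-boxes in the 100 bases before its TSS and 2 more, both within CLEAR cores, after it. The stretches are chr8:13159061-13159160 (plus strand), chr4:117887334-117887500 (minus) and chr8:105566048-105566280 (minus).
Lamp1: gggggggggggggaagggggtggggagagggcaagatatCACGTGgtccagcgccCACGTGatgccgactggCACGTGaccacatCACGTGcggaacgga
Atp6v0b: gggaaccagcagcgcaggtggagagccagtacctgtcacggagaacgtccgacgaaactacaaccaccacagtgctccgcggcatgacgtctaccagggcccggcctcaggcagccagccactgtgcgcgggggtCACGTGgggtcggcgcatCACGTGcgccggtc
Atp6v0d1: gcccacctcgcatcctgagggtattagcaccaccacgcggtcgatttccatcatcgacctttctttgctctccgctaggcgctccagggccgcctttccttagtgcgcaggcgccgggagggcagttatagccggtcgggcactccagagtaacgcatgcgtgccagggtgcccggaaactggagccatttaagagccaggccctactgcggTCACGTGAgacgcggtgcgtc

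The CLEAR core TCACGTGA, searched on both strands, was in the 300-base promoter region of 6 of 41 members (14.6%), against 2.29% of 11029 genes. The 6 were 2 proteases (Ctsa and Ctsd), 1 glycosidase (Gla), 2 membrane proteins (Lamp1 and Mcoln1, the latter a calcium channel of the lysosomal membrane) and 1 ATPase subunit (Atp6v0d1). Together they held 9 cores, of which 8 overlapped a footprint in all 3 libraries. The exception was the second core of Lamp1, overlapped in replicates 1 and 2 only. Every one of the 6 genes had at least 1 core with a footprint in all 3 libraries, against 66.0% of the 253 genes with a core. The members are known lysosomal genes and the CLEAR element was described from such genes, so this count is a description and was not tested.

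The footprints over the cores had similar edges in the 3 libraries at several genes. At Mcoln1 they were 23, 20 and 24 bases wide in replicates 1, 2 and 4, and all 3 began at chr8:3500467. At Ctsd they were 38, 37 and 39 bases wide and ended within 2 bases of each other on both sides. At the first Gla core they were 19, 17 and 18 bases wide. The second Gla core had footprints of 28, 19 and 7 bases, so replicate 4 was narrower than the core itself. At Ctsa replicates 2 and 4 each had 1 footprint of 33 bases over both cores, where replicate 1 had 2 of 12 and 17 bases. Of the 9 cores, 8 had G before or C after them and none had both, and the same share over all 274 cores of promoter regions was 86.5% with one or both.

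**Figure D1:**
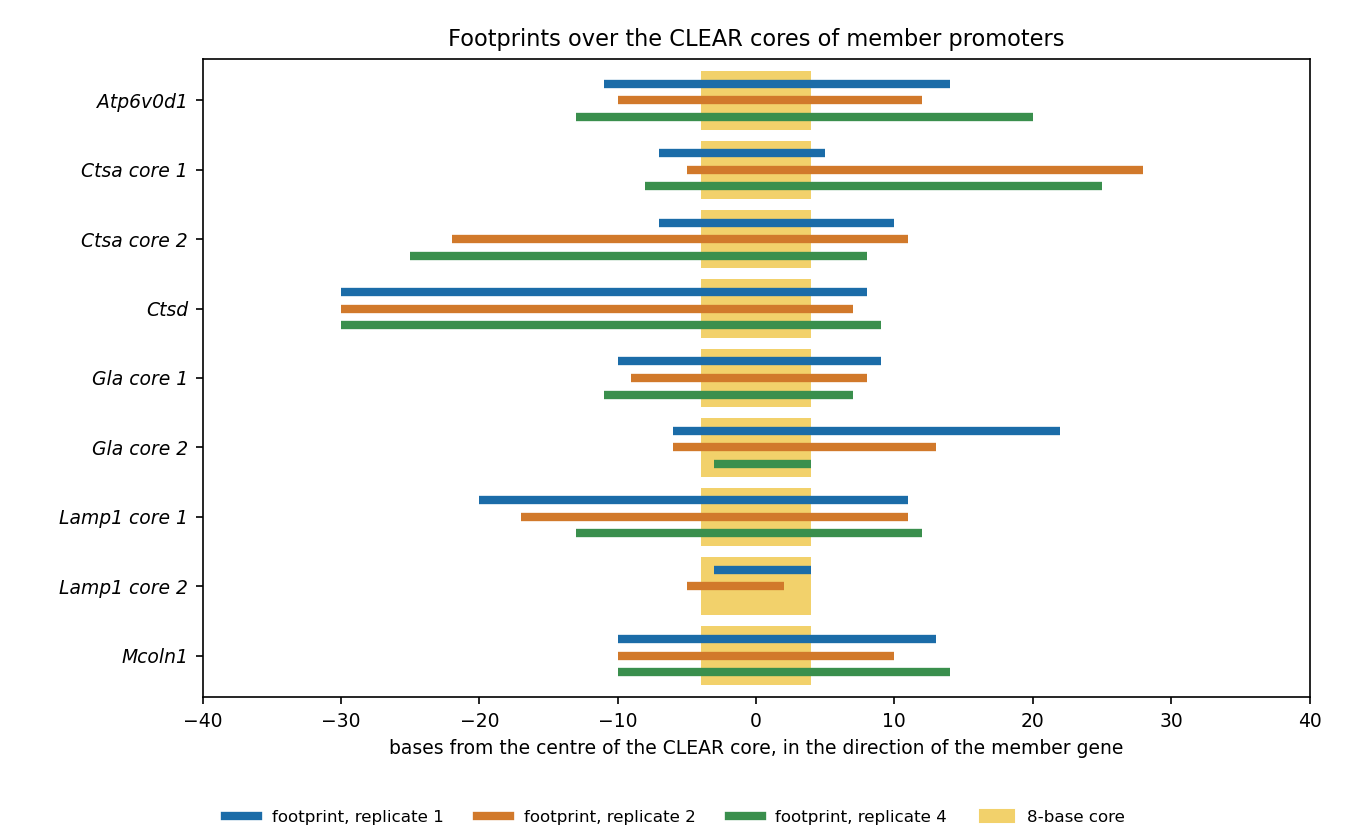
Footprints of each library (coloured bars) over the 9 CLEAR cores (yellow, 8 bases) of 6 member genes; the x axis is the distance in bases from the core's centre along the gene's strand. A bar is present in all 3 libraries at 8 cores, and the second Lamp1 core has none in replicate 4.

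The E-box CACGTG, the centre of the CLEAR core, was in the promoter region of 13 members (31.7%) against 11.2% of genes. In 8 of these 13 a footprint overlapped an E-box in all 3 libraries, where the share over the 1231 genes with an E-box was 33%. Besides the 6 genes with a CLEAR core these were Atp6v0b and Atp6v1h. Atp6v0b encodes a subunit of the V0 ring and Atp6v1h a regulatory subunit of V1. In Atp6v0b the E-box at -34 bp had footprints of 18, 18 and 12 bases, and the one at -16 bp was overlapped in replicate 1 only. Of the 4 Lamp1 E-boxes shown above, those at -42, -25 and -12 bp were overlapped in all 3 libraries and the one at -58 bp in replicates 1 and 2. The E-box at -42 bp was not covered whole by a footprint in any library. In replicate 1 the E-boxes at -25 and -12 bp shared the same footprint. In 3 members (Atp6v1c1, Hexa and Glb1) E-boxes were overlapped in 1 or 2 libraries, in Gaa one of 2 was overlapped in 2 libraries, and in Atp6v1a none was.

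Of the other motifs searched, the GC box GGGCGGGG was in 17 members (41.5%, genes 35.0%) and had a footprint in all 3 libraries in 15 of them (genes 69.6%). The CCAAT box was in 34.1% of members and 38.3% of genes, and the ETS box CCGGAAGT in 1 member, Atp6v1d, against 10.1% of genes. A variant of the core with T in place of C, TCATGTGA, here called the M-box variant, was in 5 members (Atp6v0c, Ctss, Gla, Grn and Tpp1), 12.2% against 0.68% of genes, but in none of the 5 did a footprint overlap it in all 3 libraries. Over the 75 genes that held it, 26.7% did. A match is a description of letters, and an absent one says only that these letters were not in the window.

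**Figure D2:**
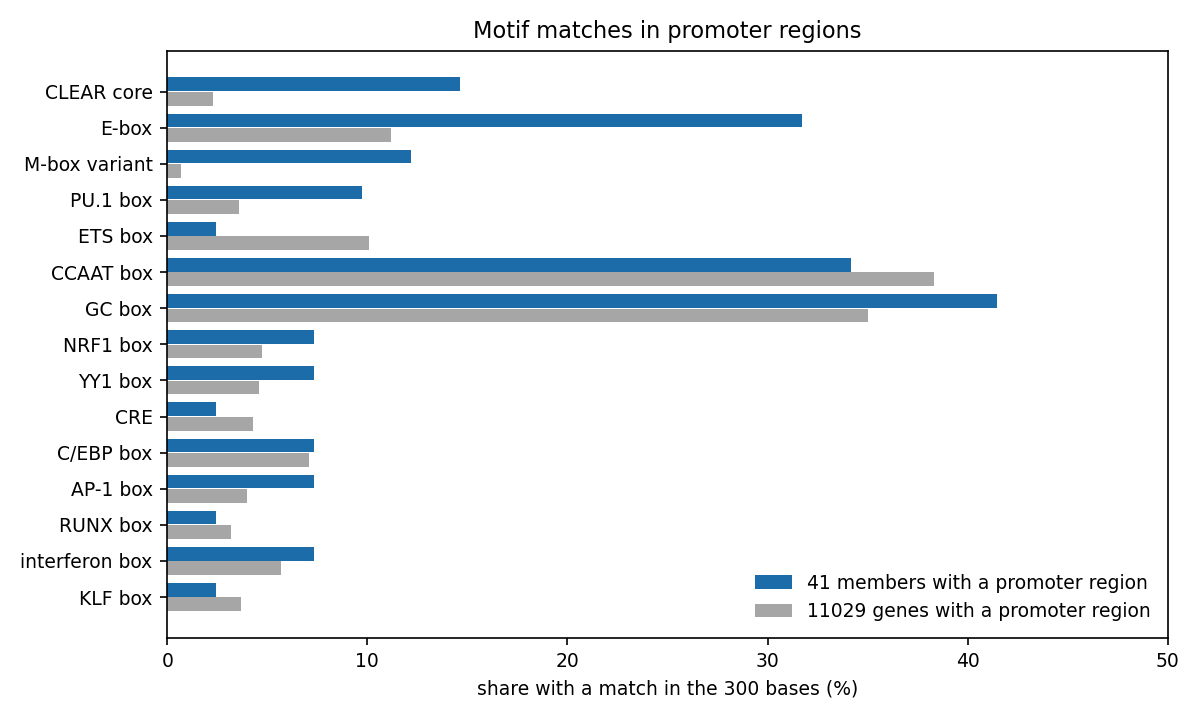
Share of promoter regions (300 bases, both strands) with a match to each of 15 motifs, for 41 members (blue) and all 11029 genes with a promoter region (grey). The bars of members and genes stand far apart at the CLEAR core (14.6% and 2.29%), the E-box (31.7% and 11.2%) and the M-box variant (12.2% and 0.68%), and in the other direction at the ETS box (2.44% and 10.1%).

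A promoter peak was present in all 3 libraries at 41 of 42 members, against 50.5% of all protein-coding genes. All 9 proteases, all 7 other hydrolases, all 3 soluble proteins, all 15 ATPase genes and 7 of 8 membrane proteins had one. The exception was Cd63, a tetraspanin of late endosomes, lysosomes and secretory granules. No peak, no footprint and no base listed at a false discovery rate (FDR) under 0.05 lay in its 4881 bp of promoter windows in any library. Outside coding promoter windows, the nearest merged region shared by all 3 libraries lay 12.4 kb downstream of its TSS, beyond the end of the gene. It was at chr10:128913301-128913500, with heights of 1.87, 1.52 and 2.13. Closer to Cd63, replicates 1 and 4 had a peak at -5.34 kb (heights 1.29 and 0.953). Replicate 2 had a separate one beside it at -5.50 kb (0.488). In Cd63's windows 11.0% of 31-base words occurred elsewhere in the genome, the highest share among the members, though Atp6v1e1 (10.6%), Cd68 (10.5%) and Ctsl (10.5%) were close to it and had promoter peaks. The part of mapping in this result was not tested.

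Heights were ranked within each library, because their scale is not stated, as the percentile of a gene's tallest promoter peak among those of all genes with a promoter peak. The members' median was 64.8, 61.3 and 63.5 in replicates 1, 2 and 4, a mean of 63.2 ± 1.78 (SD, n = 3). This was above the midpoint of all genes by 13.2 ± 1.82 percentile points, and above that of genes with a promoter peak in all 3 libraries by 10.7 points. The difference had the same sign in 3 of 3 libraries, and the two-sided exact permutation test of library signs gave p = 0.25, the smallest value that 3 libraries allow, so no comparison here can pass a threshold. Of the 41 members, 27 stood above the median of genes open in all 3 libraries in every library, 10 below it in every library, and 4 (Atp6v0e, Atp6v1f, Atp6v1h and Gusb) on both sides. By construction each library's median splits those genes evenly, and their shares above or below it in every library were not computed. At a mean percentile of 90 or more stood 4 members (9.76%), close to the 10.1% of all such genes.

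**Figure D3:**
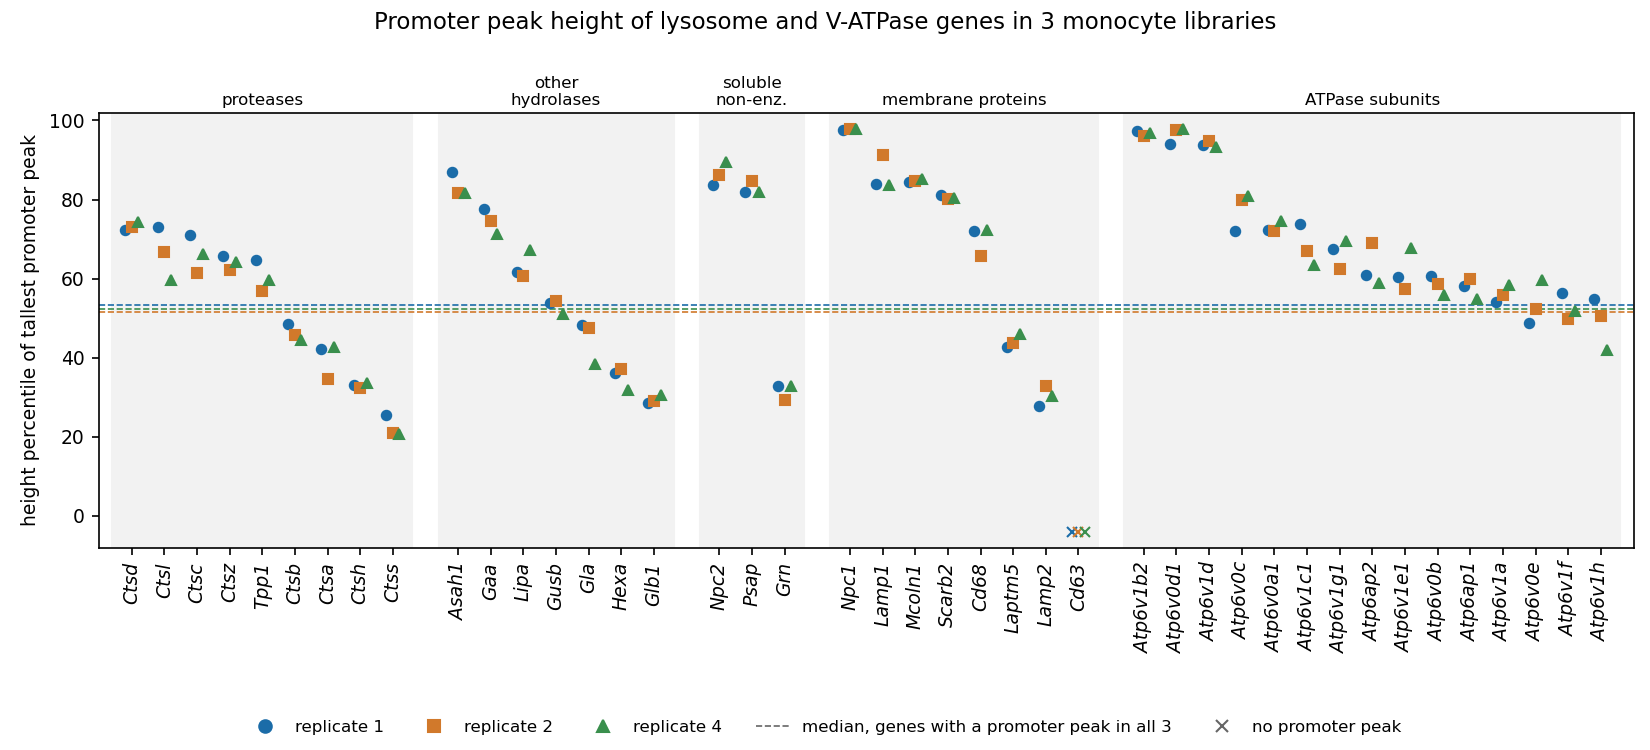
Height percentile of the tallest promoter peak (y axis, 0 to 100) of each member in replicates 1, 2 and 4, by class; dashed lines are the medians of genes with a promoter peak in all 3 libraries, and crosses mark Cd63, which had none. Members span from Ctss (20.8 to 25.6) to Npc1 (97.7 to 97.9), and no ATPase gene lies below the lines in all 3 libraries. The share of all open genes below them was not computed.

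By mean height over the 3 libraries, the members' tallest promoter peak belonged to Npc1, which exports cholesterol from the lysosome. Its heights were 12.0, 10.3 and 16.7 in replicates 1, 2 and 4, and its percentiles 97.7, 97.9 and 97.9. Atp6v1b2, the B subunit of V1 used in most tissues, had heights of 11.7, 9.27 and 15.6 (percentiles 97.2, 96.1 and 96.8). Atp6v0d1, the d subunit of V0 that links it to the stalk, had heights of 10.1, 10.1 and 16.8 (94.1, 97.6 and 97.9). Npc1 stood above Atp6v1b2 in each library, while the percentiles of Atp6v0d1 overlapped those of both. At the other end, Ctss, a cysteine protease of antigen-presenting cells, had heights of 1.66, 1.29 and 1.65 (25.6, 20.98 and 20.8). Glb1, the lysosomal beta-galactosidase, stood at percentiles of 28.6, 29.1 and 30.5, and Lamp2, a membrane glycoprotein needed for autophagy, at 27.7, 32.8 and 30.2. Ctss was below Glb1 and Lamp2 in each library, while Glb1 and Lamp2 overlapped.

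Among the proteases, the median percentile was 60.4 ± 4.00. Ctsd, the main aspartic protease, had heights of 5.89, 5.13 and 8.27 and percentiles of 72.3, 73.0 and 74.3, the highest of the class in replicates 2 and 4, while Ctsl was higher in replicate 1. The cysteine proteases were spread widely: Ctsl, Ctsc and Ctsz had mean percentiles of 66.4, 66.2 and 64.0, and Ctsb, Ctsh and Ctss of 46.2, 33.0 and 22.5. Tpp1, a tripeptidyl peptidase, had a mean of 60.4 and Ctsa, a carboxypeptidase that also stabilises glycosidases, of 39.9. The promoter region of Ctsa was centred 770 bp downstream of the coding TSS; those of 38 of 41 members were within 200 bp of a coding TSS (all genes 82.4%), the other exceptions being Atp6v1a and Hexa. Of the 9 proteases, 5 were above the median of open genes in every library and 4 below it, counts for which the shares of all open genes were not computed.

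The other hydrolases had a median percentile of 53.1 ± 1.85. Asah1 (acid ceramidase) had heights of 8.15, 6.18 and 9.72 and a mean percentile of 83.5, followed by Gaa (acid alpha-glucosidase, 74.6), Lipa (acid lipase, 63.1), Gusb (beta-glucuronidase, 53.1), Gla (alpha-galactosidase A, 44.7), Hexa (hexosaminidase subunit alpha, 35.0) and Glb1 (29.4). Gla is the only one of them with a CLEAR core, with heights of 3.45, 2.95 and 3.38. The soluble non-enzymes split: Npc2, which hands cholesterol to Npc1, and Psap, precursor of the saposins that help sphingolipid breakdown, had mean percentiles of 86.4 and 82.8. Grn, the progranulin precursor, had heights of 2.19, 1.76 and 2.80 and a mean percentile of 31.7.

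The membrane proteins with a promoter peak had a median percentile of 80.6 ± 0.60. Besides Npc1, Lamp1 had heights of 7.52, 7.84 and 10.2 (83.8, 91.4 and 83.7), Mcoln1 7.64, 6.66 and 10.6 (84.4, 84.7 and 85.2) and Scarb2, the receptor that carries glucocerebrosidase to lysosomes, a mean percentile of 80.6. Cd68, a scavenger receptor family member of macrophages, had heights of 5.85, 4.42 and 7.92 (72.1, 65.8 and 72.3). Laptm5, a lysosomal protein of blood cells, had 2.97, 2.68 and 4.18 (42.7, 43.6 and 46.0). The membrane proteins stood above the ATPase subunits by 18.2 ± 1.84 percentile points and above the proteases by 20.1 points (-20.1 ± 3.41 as protease minus membrane), with 1 sign in all 3 libraries in both cases (exact permutation p = 0.25 each). Proteases and ATPase subunits did not separate: protease minus ATPase was 3.90, -5.55 and -3.97 in the 3 libraries (exact permutation p = 0.5). When heights were ranked among all peaks of a library instead, where most promoter peaks rank high, the gaps shrank to 4.99 points for membrane against ATPase and -5.73 for protease against membrane, without changing sign.

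The ATPase subunits had a median percentile of 62.3 ± 1.30. The V0 genes ranged from 53.6 (Atp6v0e) to 96.6 (Atp6v0d1) in their means, with Atp6v0c, the proteolipid of the proton ring, at 77.6, Atp6v0a1, which forms the proton path with it, at 72.9 and Atp6v0b at 58.4. Of the V1 genes, Atp6v1b2 (96.7) and Atp6v1d (93.9), a subunit of the rotating shaft, were apart from the other 6, which ranged from 49.1 (Atp6v1h) to 68.2 (Atp6v1c1) and included the catalytic subunit Atp6v1a at 56.1. The accessory genes Atp6ap1 and Atp6ap2 stood at 57.7 and 62.9. In total 12 of 15 were above the median of open genes in every library and 0 were below it in every library. The shares of all open genes above or below it in every library were not computed. Atp6v1h kept its promoter peak only through a TSS 13 kb inside the gene: with the most upstream coding TSS alone it had none, and 40 of 42 members had one in all 3 libraries.

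Several V-ATPase subunits have other isoforms, many of them used in kidney, bone, testis or brain. Of 10 such isoform genes that are not members, 3 had a promoter peak in all 3 libraries: Atp6v0a2 (heights 6.63, 4.61 and 8.50), Atp6v1g2 (8.17, 5.94 and 9.20) and Tcirg1 (1.88, 1.65 and 2.12), the a3 subunit of V0 known from osteoclasts. The other 7, Atp6v0a4, Atp6v0d2, Atp6v0e2, Atp6v1b1, Atp6v1c2, Atp6v1e2 and Atp6v1g3, had none in any library. Thus where a member and an isoform encode the same subunit, the member was open in each case and the isoform in some. Other genes that start within 1 kb are named here for members only, so a peak at an isoform may be shared with a neighbour. The closed isoform genes were not without nearby peaks. Atp6v0d2 had 6, 3 and 2 distal peaks within 50 kb, Atp6v1b1 5, 3 and 3, Atp6v1g3 6, 5 and 7, and Atp6v1e2 11, 12 and 12, while Atp6v0e2 had 3, 2 and 2, Atp6v0a4 1 in each library and Atp6v1c2 1, 0 and 0. Of the open ones Atp6v1g2 had 21, 12 and 10, Tcirg1 8, 4 and 5 and Atp6v0a2 4 in each library.

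**Figure D4:**
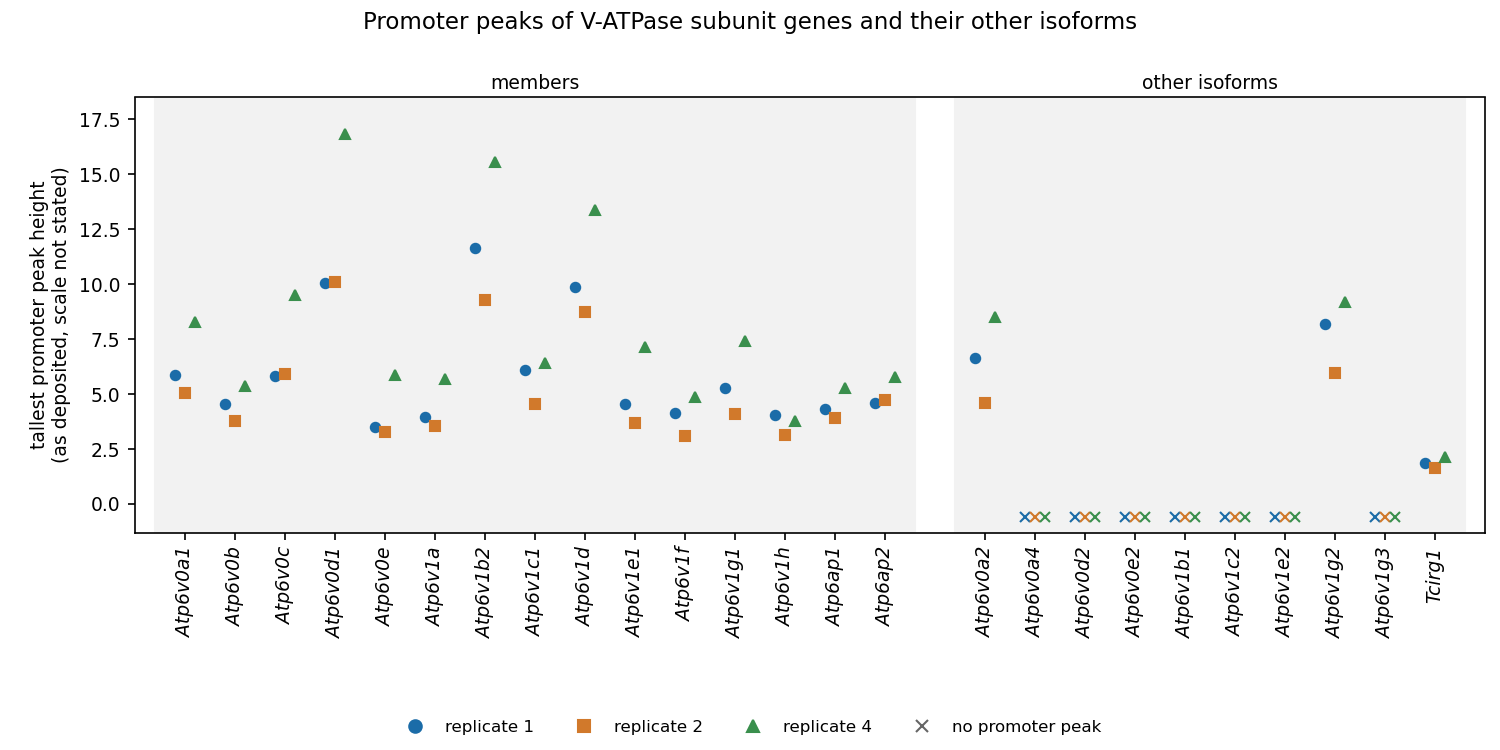
Tallest promoter peak height, as deposited, of the 15 ATPase members and 10 other isoform genes in replicates 1, 2 and 4; crosses mark genes with no promoter peak. Each member has a peak in each library, and 7 isoform genes have none in any.

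Footprints in the promoter windows averaged 6.63 ± 0.36 per member (6.95, 6.71 and 6.24) against 3.12 over all genes. Most of that gap went with promoter peaks being present at all: among genes with a promoter peak in all 3 libraries the means were 6.80 for members and 6.12 for genes. Members have shorter windows and fewer TSSs (median 1, genes 2), and per kb of window the values were 3.14 ± 0.16 and 2.61 ± 0.23. The members' value per kb was the higher one in each library (3.25 and 2.87, 3.20 and 2.43, 2.96 and 2.53). The ATPase subunits had 7.36 footprints a gene, the proteases 6.22 and the membrane proteins 5.38. The differences from the ATPase subunits were -1.13 ± 0.20 and -1.98 ± 0.39, both with 1 sign in 3 of 3 libraries (exact permutation p = 0.25 each), and per kb they were -0.23 and -0.56. Without Cd63, which had 0, the membrane proteins had 6.14 footprints a gene and their difference from the ATPase subunits was -1.21. Proteases against membrane proteins gave 0.85 ± 0.28 (exact permutation p = 0.25), which fell to 0.079 when Cd63 was left out with all genes that lacked a promoter peak.

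The most footprints were at Atp6v1d, with 12, 16 and 12 in replicates 1, 2 and 4, followed by the catalytic subunit Atp6v1a with 13, 16 and 10. Scarb2 had 11, 13 and 11. The ranges of these 3 overlapped. The fewest, after Cd63 with 0, were at Ctsd with 2, 3 and 4, then at Ctss with 3, 5 and 3 and Mcoln1 with 4, 5 and 2. Ctsd and Mcoln1 therefore had few footprints in all, yet one over their CLEAR core in each library. At Ctsd that footprint also covered a GC box in each library. At both Atp6v1d and Atp6v1a another gene starts within 1 kb (Eif2s1 and Naa50), so the footprints there cannot be assigned to the member alone. This held for 8 of 41 members (19.5%, genes 32.6%), the others being Atp6v0d1 (Gm38250), Atp6v1b2 (Slc18a1), Ctsa (Neurl2), Gla (Hnrnph2), Glb1 (Tmppe) and Npc2 (Isca2).

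Promoters of the members differed in CpG content, given as the observed over expected CpG ratio of the 1000 bases centred on the promoter region. The median was 0.694 (all genes 0.753), and 8 of 41 members (19.5%, genes 12.4%) were under 0.5. They were Cd68 (0.235), Tpp1 (0.236), Laptm5 (0.259), Ctss (0.269), Grn (0.333), Lipa (0.413), Ctsh (0.421) and Atp6v0e (0.478). All 3 members that are largely restricted to leukocytes, Cd68, Ctss and Laptm5, are in that list. Across the 41 members, the height percentile and the CpG ratio had a Spearman correlation of 0.50, and across all genes open in all 3 libraries one of 0.35, a description over genes that share libraries and base composition. Of the 8 members under 0.5, Cd68, Lipa and Tpp1 (mean percentiles 70.1, 63.1 and 60.4) nevertheless stood above the median of open genes in every library.

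The promoter sequence of Cd68 before its TSS is shown as the member with the lowest CpG ratio, with its match to the C/EBP box TTGCNNAA in capitals (chr11:69666154-69666420, minus strand). For Ctss, the 30 bases at its TSS are shown, with the PU.1 box GAGGAAGT in capitals as its reverse complement (chr3:95526773-95526802, plus strand).
Cd68: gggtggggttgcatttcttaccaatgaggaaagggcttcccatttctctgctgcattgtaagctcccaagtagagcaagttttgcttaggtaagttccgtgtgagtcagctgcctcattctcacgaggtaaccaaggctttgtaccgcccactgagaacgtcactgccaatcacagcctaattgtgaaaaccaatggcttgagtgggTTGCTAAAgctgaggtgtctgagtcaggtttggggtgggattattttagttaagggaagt
Ctss: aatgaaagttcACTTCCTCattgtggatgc
PU.1 and C/EBP factors are master regulators of myeloid genes. The PU.1 box was in 4 members' regions (Ctsc, Ctss, Gla and Gusb), 9.76% against 3.61% of genes, and had a footprint in all 3 libraries at Gla alone (15.8% of genes with the box). At Ctss it was overlapped in replicates 1 and 4. The C/EBP box was in 3 members (Cd68, Gaa and Npc2), 7.32% against 7.07% of genes, with no footprint over it in all 3 libraries (13.8% of genes with the box).

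Distal peaks lay outside every coding promoter window and within 50 kb of the gene's most upstream coding TSS. Members had 4.90, 3.64 and 4.64 on average in replicates 1, 2 and 4, a mean of 4.40 ± 0.67, and all genes had 2.69, 2.05 and 2.47. The difference was 1.99 ± 0.35 peaks a gene (exact permutation p = 0.25, same sign in 3 of 3 libraries). Among genes with a promoter peak in all 3 libraries the means were 4.46 for the 41 members and 3.18 for all, a difference of 1.27. Of the 42 members, 25 (59.5%) were above the all-gene mean in every library, as were 28.2% of all genes and 38.1% of genes with a promoter peak in all 3 libraries. Another 10 members were below it in every library, and the share of all genes below it in every library was not computed. The all-gene medians were 2, 1 and 2 peaks, each under the mean of that library. Across the 41 members, distal count and promoter percentile had a Spearman correlation of -0.04, a description over genes that share libraries. Distal peaks are assigned by distance alone, so some may belong to neighbouring genes.

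The class means of distal peaks were 5.04 for proteases, 3.76 for other hydrolases, 8.67 for the 3 soluble proteins, 4.17 for membrane proteins and 3.58 for ATPase subunits. Proteases exceeded the ATPase subunits by 1.46 ± 0.59 peaks (2.13, 1.07 and 1.18 in the 3 libraries) and the membrane proteins by 0.87 ± 0.12 (exact permutation p = 0.25 each). Membrane proteins exceeded the ATPase subunits by 0.589 ± 0.58, a difference about as large as its spread (1.26, 0.317 and 0.192 in the 3 libraries), and within 100 kb it turned to -0.767. Within 100 kb the gap between proteases and ATPase subunits was 0.622. In the ATPase itself, V0 genes had 5.40 and V1 genes 2.92 distal peaks.

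Psap had the most, with 11, 13 and 12 in replicates 1, 2 and 4. Ctsb, a cysteine protease, had 15, 7 and 11, and Laptm5 13, 5 and 9, so both had their lowest count in replicate 2, the library with the fewest peaks. Ctsd had 10, 8 and 8. Of the other leukocyte-restricted members, Ctss had 7, 6 and 6 distal peaks and Cd68 4, 3 and 4. Thus Ctss, with the lowest promoter peak, had 6 distal regions in all 3 libraries, at -32.3, -14.8, -9.12, -7.73, -5.41 and 3.26 kb from its TSS. The tallest of them, at -5.41 kb, had heights of 1.60, 1.37 and 2.46 against 1.66, 1.29 and 1.65 at the promoter. Fewer than 1 distal peak on average was found at Asah1 (0 in each library), Atp6v1a (1, 1 and 0) and Atp6v1h (0, 0 and 1).

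**Figure D5:**
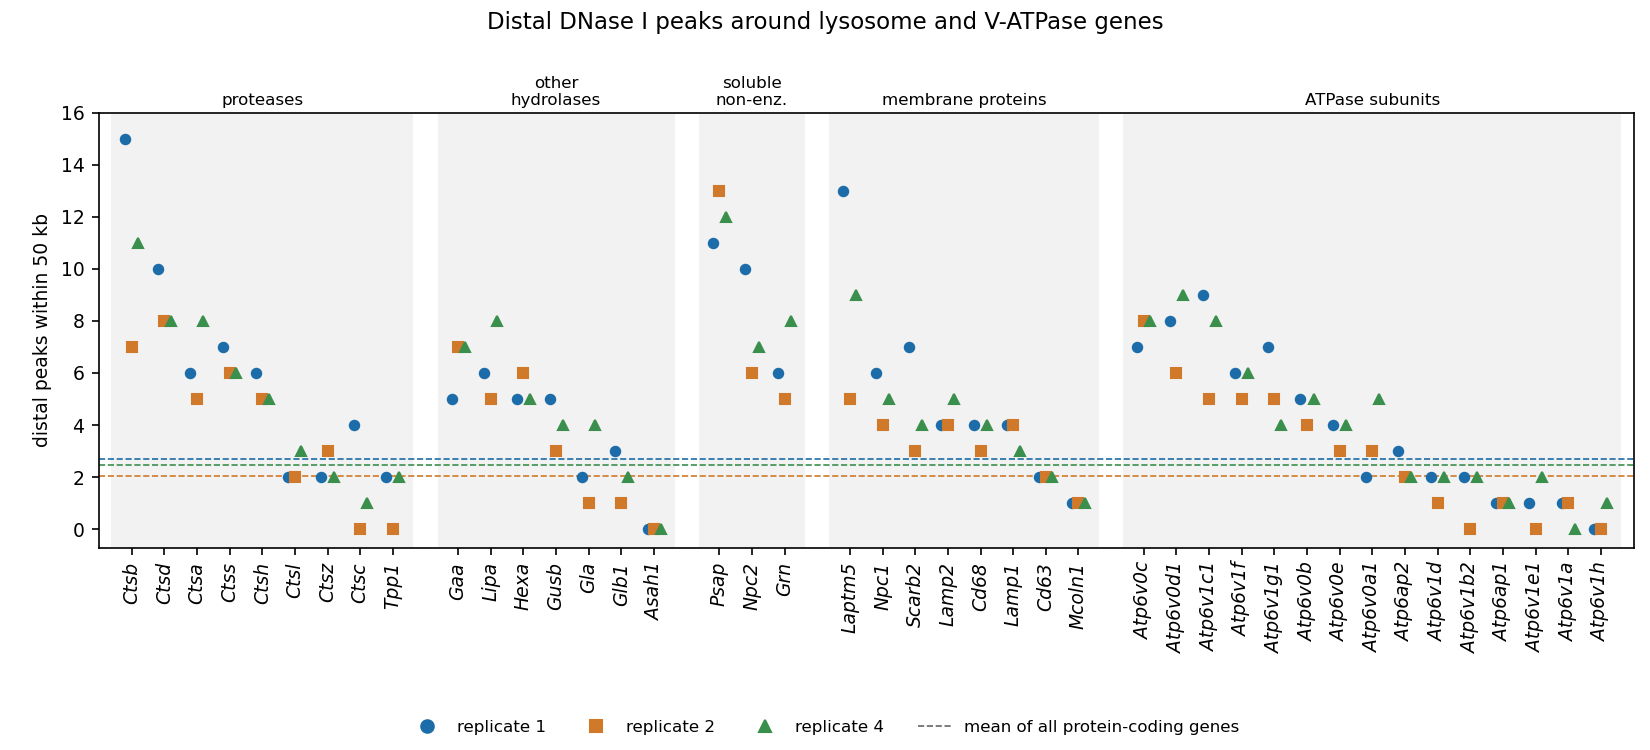
Number of distal peaks within 50 kb of each member in replicates 1, 2 and 4, by class; dashed lines are the means of all protein-coding genes. Psap, Ctsb and Laptm5 reach 13 to 15 peaks in at least 1 library, and Asah1 has 0 in each.

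Merged over libraries, 233 distal regions lay near 41 members (Asah1 had none). Of these 125 (53.6%) were in all 3 libraries, against 48.4% of 42743 distal regions in the genome, 61 were in 1 library, and 65 were inside the member gene. The tallest were at Grn, whose own promoter peak was low. One at -21.6 kb had heights of 6.85, 5.86 and 9.57, but lay 734 bp from the start of an annotated Slc25a39 transcript. Another, 36.9 kb downstream, had heights of 5.76, 4.52 and 9.05 and lay 31 bp from the start of a noncoding Itga2b transcript. The other Grn regions shared by the libraries included 2 inside the gene, at 2.02 and 4.29 kb. Their mean heights were 4.00 and 3.61, both above the promoter peak's mean of 2.25. These 2 lay 455 and 118 bp from the starts of annotated Grn transcripts with a retained intron. Of the 125 regions, 15.2% lay within 1 kb of a transcript start of any kind (12.7% of such regions in the genome).

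The tallest distal region far from any annotated start was at Psap, -15.0 kb from its TSS (chr10:60262481-60262680, plus strand), with heights of 5.54, 5.45 and 7.25 in replicates 1, 2 and 4. Its next transcript start was that of Psap. It is shown whole with its matches to the AP-1 box TGANTCA and the CCAAT box in capitals.
Psap: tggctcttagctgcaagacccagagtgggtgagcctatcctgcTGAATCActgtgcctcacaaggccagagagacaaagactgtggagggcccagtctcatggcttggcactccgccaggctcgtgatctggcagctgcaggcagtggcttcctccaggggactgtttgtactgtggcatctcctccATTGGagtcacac
Motif shares were compared between the 125 distal regions shared by the libraries and all 20696 such regions. They were 10.4% and 10.4% for the PU.1 box and 12.8% and 16.1% for the C/EBP box. For the AP-1 box TGANTCA they were 16.8% and 14.1%, and for the E-box 9.60% and 7.07%. The M-box variant was more frequent near members, in 6 of 125 regions against 357 of 20696. The ETS box was in 0 of 125 against 225 of 20696. These differences were not tested. The CLEAR core was in 1 of 125 (0.80%, genome 0.43%).

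Of 41 further lysosomal genes that are not members, 34 had a promoter peak in all 3 libraries. Arsa, Ctsk, Ctsw and Lamp3 had none in any library, Acp5 had one in 1, and Ctsf and Hyal1 in 2. Ctsk and Acp5 are best known from osteoclasts, Ctsw from cytotoxic lymphocytes and Lamp3 from mature dendritic cells. The CLEAR core was in 5 of the 34 (14.7%), and 4 of these, Clcn7 and Dpp7 among them, had a footprint over it in all 3 libraries. Among the genes of that list with the most distal peaks were Fuca1 (13, 9 and 10) and Hyal1 (10, 9 and 10).

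Genes that deliver enzymes to the lysosome had a promoter peak in all 3 libraries in 5 of 7 cases; Igf2r, the large mannose 6-phosphate receptor, had one in 1 library and Sort1 in 2. Gnptab (8, 6 and 6), Igf2r (5, 6 and 5) and M6pr (3 in each) had the most distal peaks. The core was in 2 of the 5, Gnptg and Sumf1, with a footprint in all 3 libraries at Sumf1. Of 8 regulators, 7 were open at the promoter in every library. Among the factors that bind the CLEAR element, Tfeb had heights of 7.58, 7.57 and 10.1 and 12, 8 and 12 distal peaks, Tfe3 3.72, 3.87 and 5.73 and 4 in each library, and Mitf 3.64, 3.33 and 4.60 and 6, 4 and 6, while the promoter of Tfec was without a peak in each of them. Rragc, a GTPase that recruits TFEB to the lysosome, had the tallest promoter peak of the regulators (13.6, 10.8 and 18.3) and 7, 7 and 9 distal peaks. None of the 7 regulators with a promoter region had a CLEAR core there.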

How the data were processed

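DNase-seq of 1 group of 3 mouse monocyte libraries was analysed. Per the labels the assembly is mm10. No source used here gives the aligner, the peak caller or how footprints were found. The authors deposited 2 peak lists per library. The height of a peak is a cleavage signal that the authors computed before deposit, on an unstated scale. The longer list was used. The authors' footprints carried 1 constant p-value (0.01), which was not used beyond the position. The authors also deposited the FDR, a p-value adjusted for many tests, listed where under 0.05.

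Genes came from the GENCODE M21 basic annotation (41438 coding TSSs) and sequence from GRCm38.p6, whose chromosome lengths held every peak. Overlaps were at least 1 bp. Peaks, footprints and motifs were counted with Python 3.11.15, numpy 2.4.6, pandas 2.3.3 and bedtools 2.31.1, and the counting functions were tested on simulated data. Differences are means of the 3 libraries with SD, and the test is the two-sided exact permutation of library signs. Totals per library were 36568, 28631 and 34672 peaks in the shorter list. Alternatives were that list, the taller 50% of peaks, other windows and TSS choices, ranking among all peaks, and leaving out each library. Scaling footprints per kb and limiting genes to open ones were added after seeing the data. The members and all lists were chosen with earlier results of these data known. Named with values per library were, by rule, the 3 extreme members of each measure, those with fewer than 1 distal peak, without a promoter peak or with a CLEAR core, the 3 leukocyte-restricted members and the isoform genes; of other lists, genes lacking a promoter peak and the 3 with most distal peaks, except some that are not reported here. Other members are given as means and were chosen after their values were seen.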

Additional observations from a re-analysis of the deposited data

How the results depend on the processing

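The count of members with a promoter peak in all 3 libraries was 41 under 8 of 9 alternatives (the shorter list, the taller 50% of peaks, windows of 500 bp and 2 kb, peak midpoints and each library left out) and 40 with the most upstream coding TSS only. The membrane proteins' excess of distal peaks over ATPase subunits, 0.589, turned to -0.767 within 100 kb, and the cause was not tested. The 6 members with a CLEAR core became 10 with 1000 bases, where 3.25% of genes had it, and 13 for the E-box, both by construction wider searches; in the 300 bases around the most upstream TSS there were 5, of which Atp6v1a and Ctsb were not among the 6. No other difference or count for which alternatives were run changed direction. None were run for motifs besides the CLEAR core and E-box, CpG ratios, correlations, motifs of distal regions, or V0 against V1. Leaving out a library gave from -4.76 to -0.032 percentile points for proteases against ATPase subunits, and 8 to 10 members with a footprint over an E-box. Of the members' own values, 115 distal counts moved by more than 1 SD of the libraries under an alternative and 221 did not, and 62 height percentiles moved and 224 did not. No paired analysis was possible because there is only 1 group. With 3 libraries the smallest exact permutation p is 0.25, so these data cannot call a difference, and an absent peak or footprint may reflect depth, which was not tested.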
